A study of Mus musculus with 32 samples.

Results

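Meninges of light-treated 5xFAD mice were compared with meninges of untreated 5xFAD mice, 3 mice a side, to ask which genes differ in the tissue that holds the meningeal lymphatic vessels after repeated near-infrared illumination of the head. A gene entered the comparison when its FPKM, a level scaled to transcript length and sequencing depth, reached 1 or more in no fewer than 3 of these 6, which held for 13646 of the 22337 genes in the table. The study sequenced RNA from hippocampus, meninges and sorted meningeal lymphatic endothelial cells, with 1 mouse per sample. Mice of the 5xFAD line carry transgenes for mutated human amyloid precursor protein and presenilin under Thy1 regulatory sequence, which is active in neurons. All mice were males of 6 months on a C57BL/6J background, and the WT mice were littermates. The light had a wavelength of 808 nm and was given for 10 min, 3 times per week, for 4 weeks, under isoflurane. Untreated mice had the same anesthesia and shaving with indoor lighting only. The 4 WT meninges samples were fitted together with the 6 samples compared here, so that they added to the estimate of the spread, and their levels are given as a background. Values of replicates are given in the order 1, 2 and 4 throughout, for light-treated and then for untreated mice.

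The summed counts were 12915229, 14708202 and 10018203 in the light-treated samples and 7657892, 11302983 and 9383031 in the untreated samples. In WT samples 1 to 4 they were 14541203, 12613091, 8828798 and 6601143. Genes at an FPKM of at least 1 numbered 13194, 13546 and 13246 in the light-treated samples and 13869, 13370 and 13627 in the untreated samples. Replicates varied far more than counting error allows, since the chi-square per degree of freedom between replicates of a group lay between 28.3 and 84.6. The biological coefficient of variation was 0.335 over the 10 meninges samples. On the principal component that held 26.6% of the variance of log2 counts scaled to library size, the light-treated samples lay at -37.5, -45.0 and -29.8 and the untreated samples at 32.2, 10.2 and 11.5. WT samples 1 to 4 lay at -6.91, -28.8, 48.5 and 45.7. All 3 light-treated samples lay below the untreated samples and below the lowest WT sample, and the WT samples reached further on both sides than the untreated samples.

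The meninges are layered sheets of fibroblasts around the brain, with an arachnoid barrier layer, blood and lymphatic vessels and resident and passing immune cells. The lymphatic vessels of the dura drain fluid and solutes from the brain, and light of this wavelength is absorbed in part by cytochrome c oxidase of mitochondria. The samples carried the markers of this tissue. All 24 listed fibroblast genes were tested, with Mgp the most abundant, as were all 8 arachnoid barrier genes, with Cldn11 the most abundant, and all 19 genes of border macrophages, with C1qb the most abundant. Neighbouring tissue was present as well. The choroid plexus gene Ttr took the largest share of counts in each of the 6 samples, with 3.87%, 3.43% and 5.95% in the light-treated and 4.13%, 3.69% and 3.22% in the untreated samples, and RNA of pineal gland, blood cells and bone was read in all 6.

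At an adjusted p below 0.05 and a difference of at least 2-fold, 2 of the 13646 genes changed, which is 0.0147% of the genes tested, and both fell. With edgeR's quasi-likelihood test none passed among the genes that were higher, where 688 genes (5.04%) had an unadjusted p below 0.05, against 1085 (7.95%) among those that were lower. DESeq2 called 19 higher and 58 lower genes on the same 10 samples and 42 higher and 200 lower genes on the 6 samples alone, and limma with a pseudocount of 1 called 0 higher genes and 1 lower gene. Every light-treated sample lay above every untreated sample for 1428 genes (10.5%) and below every untreated sample for 1457 genes (10.7%). The median log2 fold change over all tested genes was 0.03. Without light-treated replicate 1 the genes past the thresholds were 1 of these 2 and 1 higher gene. The count of 2 was 0 without light-treated replicate 4, 1 without untreated replicate 1, 1 without untreated replicate 2 and 4 without WT replicate 2. The count of 688 was 456 without light-treated replicate 4. The count of 1428 was 2682 without light-treated replicate 1, 2346 without light-treated replicate 4 and 2395 without untreated replicate 4. The count of 1457 was 2257 without light-treated replicate 2 and 2374 without untreated replicate 4.

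**Figure D1:**
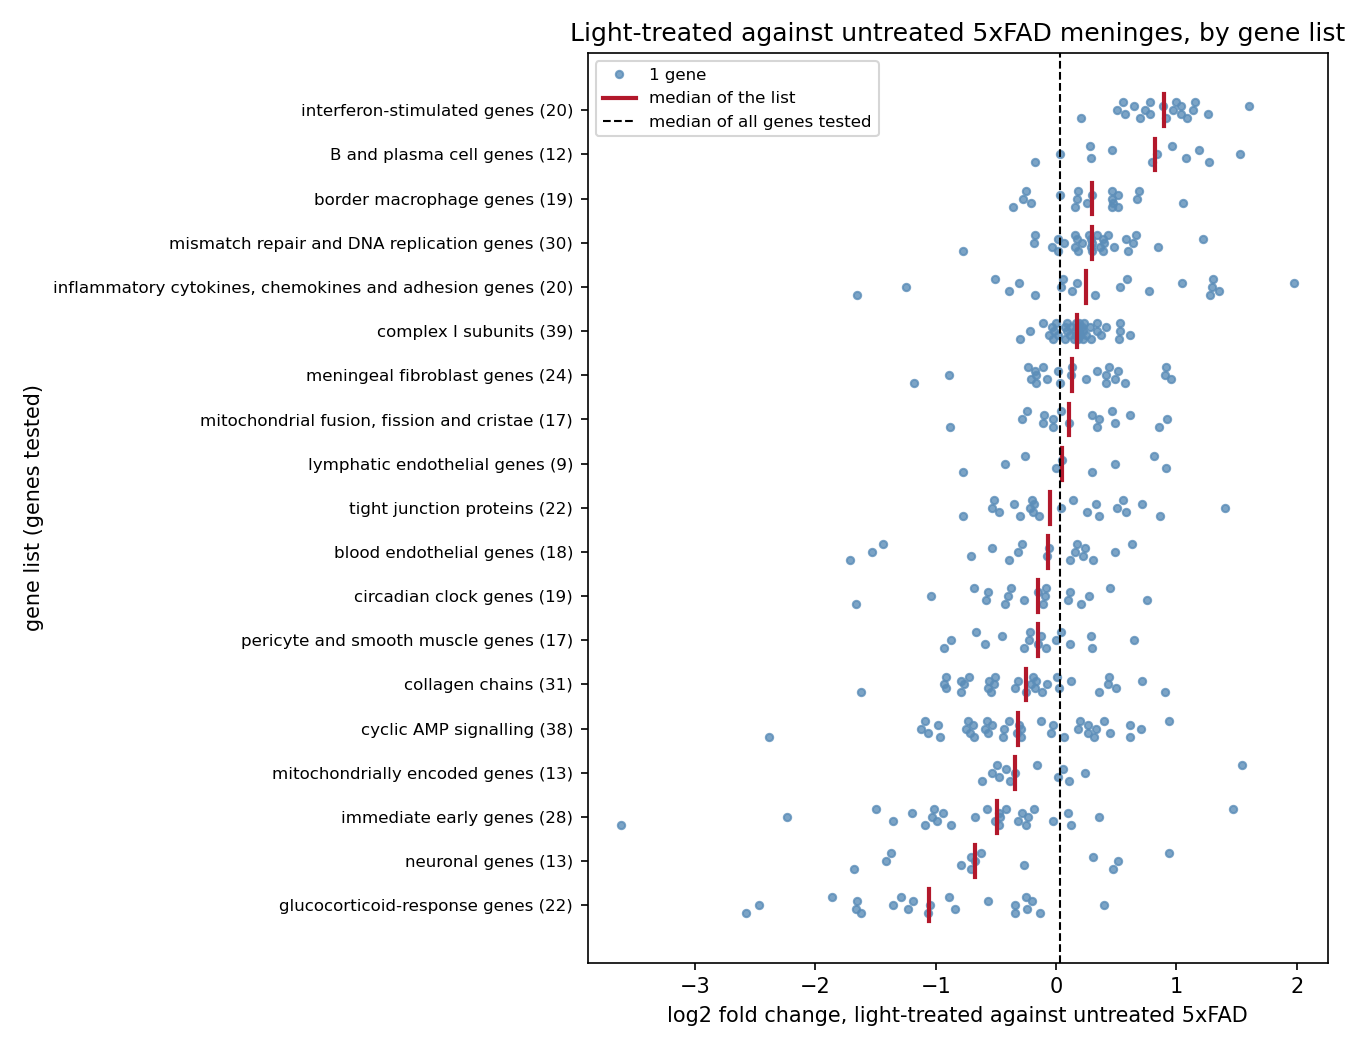
Log2 fold change, light-treated over untreated 5xFAD meninges, of each tested gene (points) of 19 lists, with the median of each list (red bar) and the median of all tested genes at 0.03 (dashed line). The glucocorticoid-response genes had a median of -1.05 and the interferon-stimulated genes a median of 0.90.

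Both genes that fell are targets of the glucocorticoid receptor, the transcription factor through which stress hormones act. Fkbp5 (ENSMUSG00000024222, chr17:28399094-28517527), which encodes a co-chaperone that lowers the hormone affinity of the receptor, had an FPKM of 5.13, 3.99 and 3.52 in the light-treated and 24.5, 34.2 and 18.5 in the untreated samples. Its log2 fold change was -2.58 (SE 0.29), with an adjusted p of 0.00685 by edgeR's quasi-likelihood test with Benjamini-Hochberg adjustment, 3 mice a side. Every light-treated sample lay below every untreated sample and below the WT samples, which lay between 17.8 and 26.2. Zbtb16 (ENSMUSG00000066687, chr9:48654297-48836222), which encodes a zinc-finger repressor induced by glucocorticoids, had an FPKM of 2.46, 3.51 and 1.36 in the light-treated and 12.2, 14.2 and 9.51 in the untreated samples. Its log2 fold change was -2.47 (SE 0.31), with an adjusted p of 0.0117 by the same test. Every light-treated sample again lay below every untreated and every WT sample, the WT samples lying between 11.8 and 19.5. Without light-treated replicate 4 the adjusted p of Fkbp5 was 0.108, and over all its alternatives it lay at or below 0.120. The adjusted p of Zbtb16 was 0.0936 without light-treated replicate 1, 0.113 without light-treated replicate 4, 0.0651 without untreated replicate 1 and 0.0847 without untreated replicate 2, and reached 0.178 over its alternatives. With limma at either pseudocount Zbtb16 also missed the threshold. With the replicate number fitted as a block, both genes missed the thresholds on the 6 samples alone and on all 10. Of 24 alternatives, Fkbp5 passed both thresholds under 21 and Zbtb16 under 16. Over those alternatives the log2 fold change lay between -2.80 and -2.31 for Fkbp5 and between -2.70 and -1.95 for Zbtb16.

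A list of 24 glucocorticoid-response genes had 22 tested genes, and 21 of these were lower and 1, Pdk4, was higher in light-treated meninges. The median log2 fold change of the list was -1.05, against 0.03 over all tested genes, and it lay between -1.33 and -0.84 when 1 replicate at a time was left out. An unadjusted p below 0.05 was reached by 14 of the 22 genes, all lower, and by 7.95% of all genes on that side. This list, like those below, was chosen with earlier results of these data known. It also includes Fkbp5 and Zbtb16, so its counts are not independent evidence. In 9 of the 22 every light-treated sample lay below every untreated sample, against 10.7% of all genes. Among the 9, Map3k6 had every light-treated value below an FPKM of 1, so its lack of overlap was fixed by the filter. Bulk RNA cannot tell fewer cells of a type from less RNA per cell, here or for any gene described from here on. Klf9, a transcription factor whose gene holds well-known receptor sites, had 24.4, 17.1 and 19.5 FPKM in the light-treated and 29.3, 45.7 and 73.1 in the untreated samples, with no overlap and a log2 fold change of -1.29 (SE 0.42). The metallothioneins bind zinc and copper. Mt1, the most abundant gene of the list, had 571, 554 and 600.2 FPKM against 1128, 1511 and 876, and Mt2 had 130.1, 141 and 129 FPKM against 293, 531 and 189. For both, every light-treated sample lay below every untreated sample. Per1, a clock gene that glucocorticoids induce directly, had 8.87, 14.6 and 3.20 FPKM against 8.61, 23.6 and 41.6. Light-treated replicate 1 and untreated replicate 1 were nearly equal, and the other untreated samples were the highest. Tsc22d3, which encodes the leucine-zipper protein GILZ, had 197, 173 and 101 FPKM against 171, 266 and 388, so that the groups overlapped. Angptl4, which encodes an inhibitor of lipoprotein lipase, had 23.7, 17.9 and 16.3 FPKM against 30.0, 52.9 and 36.9, with no overlap. Sgk1, a kinase gene that answers to the same hormones, had a log2 fold change of -0.13, and Dusp1, a phosphatase gene, one of -0.34.

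The receptor gene itself, Nr3c1, had 33.0, 21.1 and 23.9 FPKM in the light-treated and 32.4, 23.3 and 34.2 in the untreated samples, which overlapped, with a log2 fold change of -0.34. Nr3c2, which encodes the mineralocorticoid receptor, had a log2 fold change of 0.68, and Hsd11b1, whose enzyme regenerates active hormone inside cells, one of 0.03. The summed FPKM of the 24 glucocorticoid-response genes was 1696, 1639 and 1354 in the light-treated and 2226, 3527 and 2790 in the untreated samples, and lay between 2178 and 5195 in WT meninges.

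**Figure D2:**
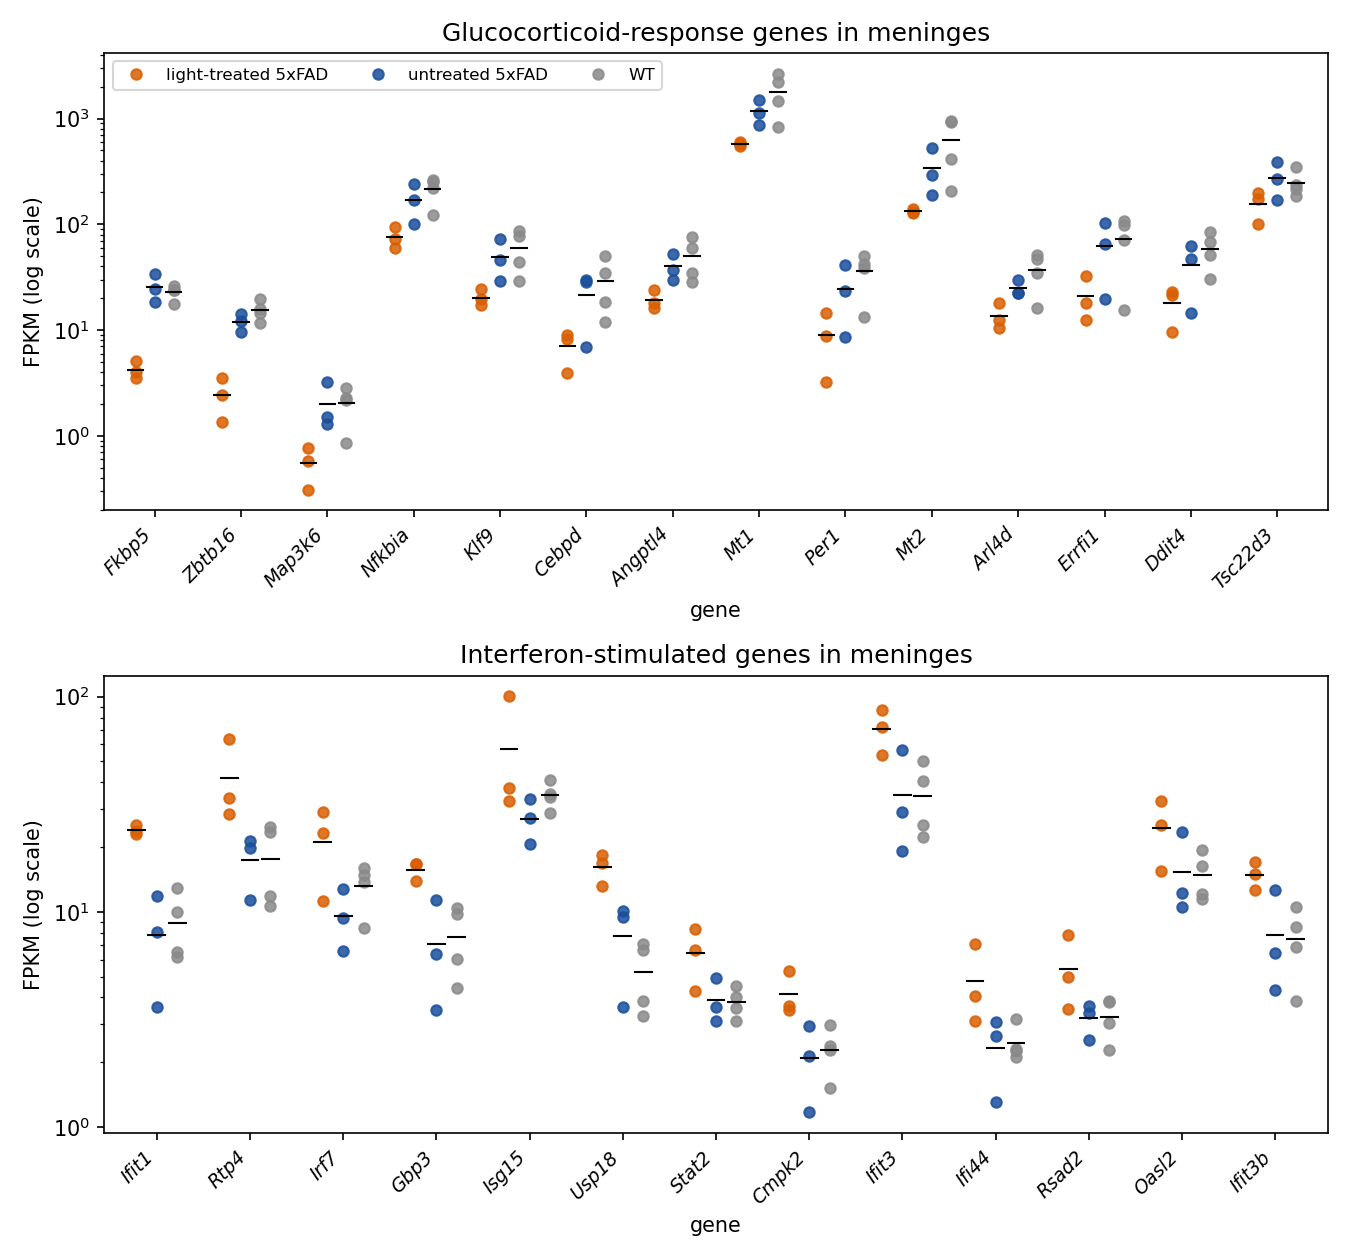
FPKM on a log scale of the 14 glucocorticoid-response genes and 13 of the 14 interferon-stimulated genes at an unadjusted p below 0.05 (1 is not shown), in light-treated 5xFAD, untreated 5xFAD and WT meninges. Points are samples and bars are means, with the 14 glucocorticoid-response genes lower and the 13 interferon-stimulated genes higher in the light-treated group.

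Genes that neurons, vessel cells and fibroblasts switch on within minutes of a stimulus, the immediate early genes, had a median log2 fold change of -0.49 over 28 tested genes of 32, against 0.03 over all tested genes, and the median lay between -0.81 without untreated replicate 1 and -0.30 without untreated replicate 4. An unadjusted p below 0.05 was reached by 1 higher and 4 lower genes of the 28, against 5.04% and 7.95% of all genes. Nr4a3, an orphan nuclear receptor gene of this class that cyclic AMP induces, had 0.89, 1.29 and 0.39 FPKM in the light-treated and 10.2, 15.7 and 5.85 in the untreated samples, with no overlap. Its log2 fold change was -3.61 (SE 0.67), and its adjusted p of 0.209 by edgeR's quasi-likelihood test with Benjamini-Hochberg adjustment missed the threshold, with all 3 light-treated samples lower. Fosl2, an AP-1 subunit gene, had a log2 fold change of -1.35, and Jund, another, had -0.94. Myc, a growth regulator gene, was higher, with 4.92, 4.37 and 2.21 FPKM against 0.48, 2.13 and 1.20. Fos itself had 56.2, 89.7 and 36.9 FPKM against 38.7, 64.6 and 62.4, and the groups overlapped throughout.

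Genes of cyclic AMP signalling had a median log2 fold change of -0.32 over 38 tested genes of 43, with 1 higher and 6 lower genes at an unadjusted p below 0.05, against 5.04% and 7.95% of all genes. The median lay between -0.46 without light-treated replicate 4 and -0.20 without untreated replicate 1, and with a trend by transcript length (described further on) taken out of each sample 4 genes were lower at that p. The phosphodiesterase gene Pde10a, whose enzyme breaks down cyclic AMP and cyclic GMP, had 0.94, 0.48 and 0.82 FPKM in the light-treated and 4.18, 4.00 and 3.41 in the untreated samples. Its log2 fold change was -2.38 (SE 0.43) with 3 mice a side. Its adjusted p of 0.201 by edgeR's quasi-likelihood test with Benjamini-Hochberg adjustment missed the threshold. All 3 light-treated values lay below an FPKM of 1, so Pde10a was tested only because all 3 untreated values reached it. Its lack of overlap was therefore fixed by the filter. Pde4d, which encodes the broadest cyclic AMP phosphodiesterase of vessels and immune cells, had a log2 fold change of -1.07. Pde6d, which encodes a carrier of prenylated proteins, was higher in every light-treated sample, with 93.1, 105 and 95.1 FPKM against 65.5, 70.9 and 42.3. The clock genes had a median of -0.15 over 19 genes. Among them 1 lower gene, Per1, had an unadjusted p below 0.05, against 7.95% of all genes on that side. That median lay between -0.36 without untreated replicate 2 and 0.16 without untreated replicate 4.

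Interferon-stimulated genes encode antiviral proteins and the factors that relay interferon signals. All 20 listed genes were tested and all 20 were higher in light-treated meninges. Their median log2 fold change was 0.90, against 0.03 over all tested genes, and lay between 0.63 and 1.26 when 1 replicate at a time was left out. An unadjusted p below 0.05 was reached by 14 of the 20, all higher, against 5.04% of all genes on that side, and in 8 of the 20 every light-treated sample lay above every untreated sample, against 10.5% of all genes. Ifit1, whose protein binds viral RNA lacking a host cap, had 25.4, 23.1 and 23.7 FPKM in the light-treated and 3.63, 8.03 and 11.9 in the untreated samples. Its log2 fold change was 1.60 (SE 0.39), and its adjusted p of 0.275 by edgeR's quasi-likelihood test with Benjamini-Hochberg adjustment missed the threshold, with all 3 light-treated samples higher. Rtp4, a negative regulator of the response, had 63.3, 33.9 and 28.4 FPKM against 11.4, 19.8 and 21.3. The groups did not overlap, with untreated replicate 1 the lowest sample and light-treated replicate 1 the highest. Irf7, the factor that amplifies type I interferon production, had 29.1, 23.3 and 11.2 FPKM against 6.60, 12.7 and 9.39, and light-treated replicate 4 overlapped the untreated samples. Isg15, which encodes a ubiquitin-like modifier, had 100.2, 32.7 and 37.8 FPKM against 20.6, 27.2 and 33.3, with light-treated replicate 1 well above the other 5 samples. Ifit3, a partner of Ifit1 in RNA binding, had 86.4, 72.2 and 53.3 FPKM against 19.3, 29.1 and 56.7. The most abundant member, Ifitm3, which blocks viral fusion, had a log2 fold change of 0.21.

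Cytokine, chemokine and adhesion genes had a median log2 fold change of 0.25 over 20 tested genes of 25, with 2 higher and 0 lower genes at an unadjusted p below 0.05, against 5.04% and 7.95% of all genes. That median lay between 0.20 and 0.54 when 1 replicate at a time was left out, the highest without untreated replicate 4. Ccl4, which encodes a chemokine of activated macrophages, had 7.63, 5.15 and 5.85 FPKM in the light-treated and 1.5, 1.67 and 1.52 in the untreated samples. The most abundant, the monocyte chemokine gene Ccl8, had 1169, 318 and 283 FPKM against 231, 265 and 232. The light-treated samples lay above the untreated samples for both, with replicate 1 far above the others for Ccl8. Cxcl1, a neutrophil chemokine gene, had 1.03, 0.70 and 0.61 FPKM against 1.17, 0.89 and 3.48, which overlapped, with untreated replicate 4 well above the other 5 samples. Summed over the 25 genes, FPKM was 1507, 666 and 511 against 396, 499 and 473.

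B and plasma cell genes had a median log2 fold change of 0.82 over 12 tested genes of 14, with 4 higher and 0 lower genes at an unadjusted p below 0.05, against 5.04% and 7.95% of all genes. Leaving out 1 replicate at a time gave medians between 0.62 and 1.08. Cd79b, a chain of the B cell receptor, had 28.4, 17.7 and 15.2 FPKM in the light-treated and 9.52, 7.43 and 11.9 in the untreated samples, and Ms4a1, which encodes CD20, had 4.62, 5.03 and 5.12 FPKM against 2.41, 1.85 and 1.83. Neither gene showed overlap between the groups. The summed FPKM of the 14 genes, most of it from the light chain gene Igkc, was 2358, 6172 and 1354 against 1626, 2890 and 2784, which overlapped. T and natural killer cell genes had a median of 0.69 over 12 tested genes of 15, with 1 higher gene, Cd4, and 0 lower genes at an unadjusted p below 0.05, against the same shares of all genes. That median lay between 0.26 and 0.86 when 1 replicate was left out, the lowest without light-treated replicate 1. Border macrophage genes had a median of 0.30 over 19 genes, which ranged from -0.04 to 0.43 in the same way and was below 0 without light-treated replicate 1. In this list 1 gene, the fractalkine receptor gene Cx3cr1, was higher at an unadjusted p below 0.05, against 5.04% of all genes on that side. Cx3cr1 had 13.4, 17.4 and 12.5 FPKM against 4.81, 6.40 and 9.21. The scavenger receptor genes Mrc1 and Stab1 of the same cells had log2 fold changes of 0.03 and -0.36. The 7 MHC class II genes had a median of 0.33, between 0.02 without untreated replicate 1 and 0.51 without light-treated replicate 4, with 0 genes at an unadjusted p below 0.05 in either direction.

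Light-treated replicate 1 had higher levels of red blood cell and neutrophil genes than the other 5 samples. Summed FPKM of 13 erythroid genes, with Hbb-bs the most abundant, was 48590, 6475 and 16800 in the light-treated and 12520, 18250 and 6487 in the untreated samples. That of 15 neutrophil genes, with S100a8 the most abundant, was 7846, 727 and 767 against 673, 3392 and 1814. Their median log2 fold changes were 0.96 over 10 tested erythroid genes and 0.51 over 15 neutrophil genes, with 1 and 0 higher genes at an unadjusted p below 0.05, against 5.04% of all genes. Without light-treated replicate 1 these medians were -0.17 and -1.51. The highest medians when 1 replicate was left out were 1.42 and 1.09. The part of these cells in the immune results was not tested.

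The promoters of genes of these lists were read for the short sequences that the matching transcription factors bind, in windows of 300 bases around the start of transcription. The sequences are from the RefSeq annotation of the mouse genome, build GRCm38.p6, and are written in the direction of transcription, with capitals marking the bases of a match on either strand. The interferon motif GAAANNGAA, where N is any base, stood in 2812 of the 32851 promoter windows of all genes (8.56%). Counted by gene, since a gene may have several windows, it stood in 9.76% of 27025 genes and in 12 of the 17 interferon-stimulated genes with a window. The windows of Isg15 (chr4:156200769-156201068, minus strand), Ifit1 (chr19:34640639-34640938, plus strand) and Ifit3 (chr19:34583279-34583578, plus strand) held 3 matches each, which in Isg15 overlap in a single run. They are printed to show the motif where it stands, and so were chosen for their matches. The window of Irf7, also described above by sample, held 0.
Isg15: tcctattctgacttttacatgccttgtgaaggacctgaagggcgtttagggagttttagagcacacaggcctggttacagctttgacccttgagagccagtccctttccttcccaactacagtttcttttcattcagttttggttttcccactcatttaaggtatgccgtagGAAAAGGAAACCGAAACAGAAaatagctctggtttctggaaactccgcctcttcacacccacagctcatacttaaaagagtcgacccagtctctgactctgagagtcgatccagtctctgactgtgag
Ifit1: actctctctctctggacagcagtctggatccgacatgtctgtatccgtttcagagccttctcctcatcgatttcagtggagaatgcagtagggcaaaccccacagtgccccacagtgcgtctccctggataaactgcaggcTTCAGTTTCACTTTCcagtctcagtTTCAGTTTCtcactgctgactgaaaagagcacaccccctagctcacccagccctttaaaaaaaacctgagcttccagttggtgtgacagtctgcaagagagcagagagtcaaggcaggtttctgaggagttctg
Ifit3: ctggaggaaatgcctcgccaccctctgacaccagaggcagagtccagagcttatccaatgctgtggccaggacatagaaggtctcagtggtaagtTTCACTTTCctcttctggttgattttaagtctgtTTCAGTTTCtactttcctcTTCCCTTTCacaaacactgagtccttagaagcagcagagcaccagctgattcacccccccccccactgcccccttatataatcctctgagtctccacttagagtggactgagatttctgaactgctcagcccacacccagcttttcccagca

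The glucocorticoid receptor motif ACANNNTGT stood in 2249 of the same windows (6.85%), in 7.90% of genes and in 6 of the 19 glucocorticoid-response genes with a window. The window of Mt1 (chr8:94178839-94179138, plus strand) held 1 match. The window of Fkbp5 (chr17:28486100-28486399, minus strand) held 0, which says only that these letters are not in this window. The short cyclic AMP response motif TGACG stood in 6837 windows (20.8%), in 23.0% of genes and in 15 of the 23 immediate early genes with a window, and the window of Nr4a3 (chr4:48045055-48045354, plus strand) held 4 matches. A match describes the letters, not binding. These windows are printed for the most abundant gene of the list, for the gene with the smallest p and for the immediate early gene with the lowest fold change.
Mt1: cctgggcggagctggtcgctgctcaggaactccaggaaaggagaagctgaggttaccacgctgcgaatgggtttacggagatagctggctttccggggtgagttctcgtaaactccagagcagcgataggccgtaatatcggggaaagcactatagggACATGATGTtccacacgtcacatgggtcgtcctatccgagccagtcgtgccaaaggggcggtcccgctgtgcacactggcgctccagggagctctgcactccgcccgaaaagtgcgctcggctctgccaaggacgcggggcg
Fkbp5: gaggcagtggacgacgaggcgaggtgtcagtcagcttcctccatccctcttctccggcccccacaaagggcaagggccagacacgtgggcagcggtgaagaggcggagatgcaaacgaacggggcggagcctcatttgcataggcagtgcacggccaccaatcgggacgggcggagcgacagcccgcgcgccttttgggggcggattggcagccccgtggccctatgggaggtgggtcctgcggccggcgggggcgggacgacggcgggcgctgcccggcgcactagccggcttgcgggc
Nr4a3: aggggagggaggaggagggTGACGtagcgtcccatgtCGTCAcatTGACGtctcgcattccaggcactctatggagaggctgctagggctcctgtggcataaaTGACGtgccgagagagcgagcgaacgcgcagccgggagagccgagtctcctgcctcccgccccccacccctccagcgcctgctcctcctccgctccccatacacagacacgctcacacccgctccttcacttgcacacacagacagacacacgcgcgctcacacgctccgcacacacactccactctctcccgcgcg

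Genes that were lower had longer transcripts than genes that were higher. Over all tested genes Spearman's rho between log2 fold change and transcript length was -0.31, a value across genes, which are not independent replicates. In 5 equal classes by length, the shortest of 187 to 1496 bases and the longest of 4411 to 127862 bases, the median log2 fold change was 0.13, 0.15, 0.13, 0.01 and -0.32. Genes lower at an unadjusted p below 0.05 made up 1.61% of the shortest class and 19.8% of the longest, and genes higher 5.71% and 1.32%. Every light-treated sample lay below every untreated sample in 706 of the 2729 longest genes (25.9%), against 10.7% of all genes. The median deviation of the longest class less that of the shortest was -0.35, -0.17 and -0.13 in the light-treated and 0.24, 0.00 and 0.43 in the untreated samples on the log2 scale. In WT samples 1 to 4 it was 0.03, -0.56, 0.48 and -0.01, so that WT mice alone covered a wider range than both 5xFAD groups. In hippocampus the class medians ran the other way, from -0.15 in the shortest to 0.08 in the longest class. With the length trend taken out of each sample, an alternative chosen after seeing the data, 843 genes were higher and 815 lower at an unadjusted p below 0.05, and the 2 genes past the thresholds were again Fkbp5 and Zbtb16. The median of the glucocorticoid-response genes was then -1.10 and that of the interferon-stimulated genes 0.89, while that of cyclic AMP signalling was -0.10 and that of the clock genes 0.03.

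**Figure D3:**
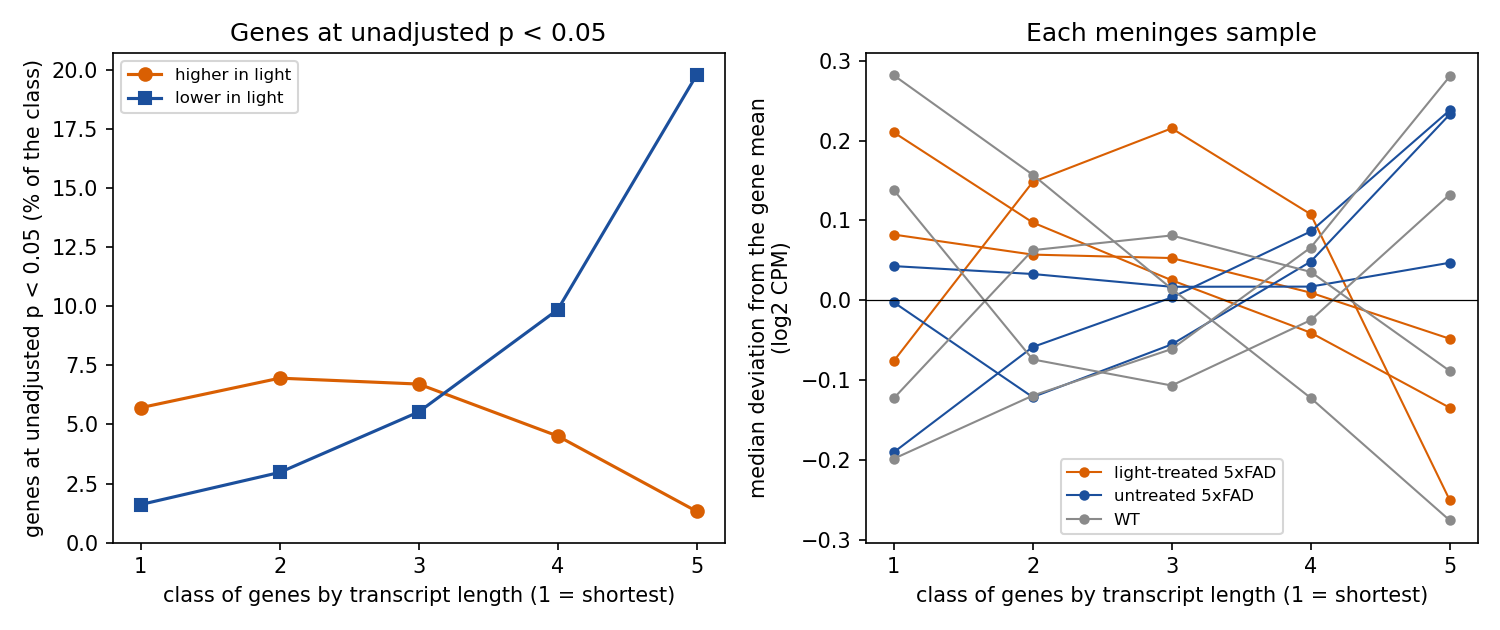
Left, percent of genes at an unadjusted p below 0.05, higher or lower in light-treated meninges, in 5 classes of transcript length. Right, median deviation of log2 counts, scaled to library size, of each class in each sample, where the longest class lies below 0 in the light-treated samples and above 0 in the untreated samples.

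Among genes whose groups did not overlap and whose mean FPKM was at least 5 in at least 1 group, the 12 with the smallest p on each side were taken. Beside Fkbp5 and Zbtb16, only Arap2 of these had an adjusted p below 0.1. Arap2, which encodes a regulator of focal adhesions, had 2.41, 2.29 and 2.37 FPKM in the light-treated and 7.05, 6.82 and 5.95 in the untreated samples. Its log2 fold change was -1.58 and its adjusted p 0.0786 by edgeR's quasi-likelihood test with Benjamini-Hochberg adjustment, lower in 3 of 3 samples, which missed the threshold. Stk40, a kinase gene linked to glycogen metabolism, had 2.41, 1.98 and 2.57 FPKM against 7.94, 12.04 and 6.07. Fgf2, a growth factor gene of vessels and fibroblasts, had 2.62, 2.30 and 2.81 FPKM against 8.33, 7.69 and 6.19. Ism1, which encodes a secreted inhibitor of vessel growth, had 4.95, 3.64 and 6.45 FPKM against 21.2, 15.5 and 9.18. For these 3 genes the lowest untreated sample lay above the highest light-treated sample, with the spread wider among untreated mice. Synpo, an actin-binding protein gene, had a log2 fold change of -1.24. Plec, which encodes the large linker plectin, had 16.8, 14.9 and 11.3 FPKM against 31.1, 42.7 and 43.8. Slc6a17, a transporter gene of neutral amino acids in neurons, had a log2 fold change of -1.74. Arap2, Fgf2, Synpo, Plec and Slc6a17 lay in the longest length class, where 19.8% of genes were lower at an unadjusted p below 0.05. With the length trend left in and then taken out, the log2 fold change was -1.58 and -1.14 for Arap2 and -1.57 and -1.22 for Fgf2. In that order it was -1.24 and -0.98 for Synpo, -1.18 and -0.82 for Plec and -1.74 and -1.48 for Slc6a17. For Stk40 and Ism1, with shorter transcripts, it was -1.91 and -1.85, and -1.59 and -1.60.

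On the higher side the smallest adjusted p was 0.197, that of Vat1l, by edgeR's quasi-likelihood test with Benjamini-Hochberg adjustment, and Vat1l was higher in 3 of 3 samples with a log2 fold change of 1.59. Vat1l, a relative of a synaptic vesicle protein gene, had 15.4, 33.4 and 32.7 FPKM in the light-treated and 9.62, 8.46 and 8.57 in the untreated samples. Pla2g2d, a secreted phospholipase gene of resting dendritic cells and macrophages, had 33.7, 24.7 and 12.7 FPKM against 5.48, 5.13 and 7.75. Untreated samples lay close together for both, and the light-treated samples were spread. Iglc3, an antibody light chain gene, had 34.4, 53.1 and 51.9 FPKM against 12.04, 12.97 and 11.6. Snai2, a transcription factor gene of mesenchymal cells, had 9.49, 10.8 and 9.46 FPKM against 2.69, 2.77 and 3.58. Both groups were tight for Snai2. Orc3, a subunit of the complex that marks replication origins, had 17.8, 28.0 and 24.3 FPKM against 10.95, 7.76 and 10.2. Nipsnap2, a mitochondrial protein gene, had 76.7, 72.3 and 82.8 FPKM against 41.0, 36.5 and 39.0, a narrow spread in both groups. Spag6l, a gene of the motile cilium, had a log2 fold change of 1.48.

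Lymphatic endothelial genes had a median log2 fold change of 0.05 over 9 tested genes of 11, near the 0.03 of all tested genes, with 1 higher and 0 lower genes at an unadjusted p below 0.05, against 5.04% and 7.95% of all genes. The median was -0.06 without light-treated replicate 1 and 0.44 without untreated replicate 4, the ends of its range when 1 replicate was left out. With the length trend taken out it was 0.16. The higher gene, Foxc2, which directs the formation of lymphatic valves, had 18.0, 19.3 and 14.4 FPKM in the light-treated and 7.58, 6.45 and 13.04 in the untreated samples, without overlap. Prox1, the factor that sets lymphatic identity, missed the level required for testing, with 0.49, 0.15 and 0.41 FPKM against 0.74, 0.24 and 0.51. Lyve1, a hyaluronan receptor gene of lymphatic vessels and macrophages, had 5.02, 3.48 and 5.27 FPKM against 8.38, 6.05 and 4.17, and Ccl21a, the chemokine gene of lymphatic vessels, 159, 61.4 and 158 against 52.3, 77.5 and 88.3. Both overlapped. The summed FPKM of the 11 genes was 326, 237 and 312 against 178, 203 and 256. In WT meninges it lay between 207 and 322.

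Blood endothelial genes had a median log2 fold change of -0.07 over 18 genes. At an unadjusted p below 0.05, 0 were higher and 2 lower, against 5.04% and 7.95% of all genes. The median lay between -0.28 and 0.23 when 1 replicate was left out, the highest without untreated replicate 4. With the length trend taken out it was 0.06. Ackr1, the chemokine-binding receptor of venules, had 13.3, 11.9 and 11.5 FPKM in the light-treated and 33.2, 63.1 and 23.0 in the untreated samples. Slc7a5, which carries large amino acids and thyroid hormone into the brain, had 2.80, 4.77 and 1.24 FPKM against 9.88, 9.91 and 5.00. All light-treated samples were lower for both. Pecam1, a general endothelial marker, had a log2 fold change of 0.24, and Cldn5, the main claudin of brain endothelium, one of -0.53. Pericyte and smooth muscle genes had a median of -0.15 over 17 tested genes of 18. At an unadjusted p below 0.05, 1 gene was higher, Vtn, at a log2 fold change of 0.65, and 1 lower, Cspg4, at -0.87. The shares of all genes were 5.04% and 7.95%. The groups overlapped for Cspg4, and with the length trend taken out its log2 fold change was -0.38 and it missed that p. The median of the list lay between -0.25 and 0.01 when 1 replicate was left out, the highest without light-treated replicate 2. With the length trend taken out the median was -0.003, with 2 higher and 2 lower genes. Tight junction proteins had a median of -0.05 over 22 tested genes of 35. That median lay between -0.14 and 0.24 when 1 replicate was left out, the highest without untreated replicate 4. With the length trend taken out it was 0.06. In this list 1 gene, Ocln, was higher at an unadjusted p below 0.05, against 5.04% of all genes on that side. Ocln, whose product seals epithelial and endothelial contacts, had 5.51, 12.03 and 12.7 FPKM against 1.89, 4.16 and 4.57.

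Meningeal fibroblast genes had a median log2 fold change of 0.13 over 24 genes, with 3 higher and 1 lower genes at an unadjusted p below 0.05, against 5.04% and 7.95% of all genes. Without light-treated replicate 1 or untreated replicate 1 that median was about 0, and without untreated replicate 4 it was 0.32. With the length trend taken out it was 0.26, with 5 higher and 1 lower genes. The lower gene was also the most abundant, Mgp, whose protein blocks calcification, with 11446, 7183 and 6907 FPKM in the light-treated and 16835, 14372 and 16023 in the untreated samples. Slc6a20a, a proline transporter gene of the meninges, was higher without overlap, with 37.7, 69.8 and 43.3 FPKM against 21.9, 27.2 and 25.5. Slc22a6, an organic anion transporter gene of the same cells, had a log2 fold change of 0.91. Ptgds, which encodes the prostaglandin D synthase of the arachnoid, had one of 0.02, and Dcn, a proteoglycan gene, one of 0.03. Collagen chains had a median of -0.25 over 31 tested genes of 44, with 1 higher and 7 lower genes at an unadjusted p below 0.05, against 5.04% and 7.95% of all genes. Leaving out 1 replicate moved that median between -0.50 without light-treated replicate 4 and -0.05 without untreated replicate 4, and their median length was 4855 bases against 2664 over all tested genes. With the length trend taken out the median was -0.08, with 3 higher and 1 lower genes. Col4a1, a chain of the basement membrane, had 7.81, 11.8 and 12.7 FPKM against 18.0, 18.7 and 22.2. Col7a1, which forms anchoring fibrils, had a log2 fold change of -1.62. Col1a1, the main chain of fibrous matrix and bone, had 183, 259 and 450.0 FPKM against 96.3, 181 and 198, and overlapped.

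In the respiratory chain, the 39 complex I subunit genes had a median log2 fold change of 0.17, the 14 genes of complexes II and III one of 0.19, the 17 cytochrome c oxidase subunit genes one of 0.21 and the 16 tested ATP synthase genes one of 0.16, against 0.03 over all tested genes. In the same order 31, 11, 13 and 13 of them were higher, as were 7225 of the 13646 tested genes. Among the genes of these 4 lists, 1 of complex I, Ndufs1, reached an unadjusted p below 0.05 and was higher, against 5.04% of all genes on that side. With the length trend taken out the medians were 0.09, 0.08, 0.13 and 0.08. With that trend left in, leaving out 1 replicate at a time moved the medians both ways. They lay between 0.00 and 0.31 for complex I and between 0.06 and 0.31 for complexes II and III. For cytochrome c oxidase they lay between 0.01 and 0.42, and for ATP synthase between -0.07 and 0.35. The lowest came without light-treated replicate 4 for cytochrome c oxidase and without untreated replicate 4 for the other lists. The 13 genes encoded by mitochondrial DNA had a median of -0.34, which was -0.45 with the length trend taken out. When 1 replicate was left out it lay between -0.54 and 0.11, the highest without untreated replicate 4. At an unadjusted p below 0.05 this list had 1 higher and 0 lower genes, against 5.04% and 7.95% of all genes. With that trend taken out it had 0 higher and 4 lower, against 843 and 815 of the 13646 tested genes. The higher gene was mt-Atp8, at 1199, 1017 and 2366 FPKM against 517, 302 and 768. Genes of mitochondrial fusion, fission and cristae had a median of 0.11 over 17 genes, with 5 higher and 1 lower genes at an unadjusted p below 0.05, against 5.04% and 7.95% of all genes. With the length trend taken out 3 were higher and 1 lower, and the median was 0.21. With that trend left in, the median was 0.05 without untreated replicate 4 and 0.22 without light-treated replicate 1. Apoo, a subunit of the complex that shapes cristae, had 71.9, 81.9 and 134 FPKM in the light-treated and 61.0, 52.0 and 33.9 in the untreated samples. Immt, the core gene of that complex, had 55.8, 67.6 and 72.7 FPKM against 45.4, 48.3 and 45.1. Mfn1, which fuses outer membranes, was lower, with 3.41, 4.08 and 3.16 FPKM against 6.62, 7.16 and 5.17. None of the 3 overlapped.

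Genes of mismatch repair and DNA replication had a median log2 fold change of 0.30 over 30 tested genes of 31, of which 26 were higher, with 4 higher and 0 lower genes at an unadjusted p below 0.05, against 5.04% and 7.95% of all genes. The median lay between 0.24 and 0.35 when 1 replicate was left out. In 8 of the 30 every light-treated sample lay above every untreated sample, against 10.5% of all genes. Rpa3, a subunit of the protein that coats single-stranded DNA, had 35.7, 26.0 and 33.3 FPKM in the light-treated and 12.7, 12.9 and 15.0 in the untreated samples. Pcna, the sliding clamp gene and the most abundant of the list, had 45.3, 52.2 and 50.3 FPKM against 38.7, 44.0 and 43.8. Summed over the 31 genes, FPKM was 282, 320 and 280 against 231, 226 and 244, and lay between 201 and 255 in WT meninges. Mitotic genes had a median of 0.46 over 12 tested genes of 20, and without light-treated replicate 1 the median was -0.15. In this list 1 higher gene, the cyclin gene Ccnb2, had an unadjusted p below 0.05, against 5.04% of all genes on that side.

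Genes of other cell types and of neighbouring tissue differed widely between samples of the same group. Choroid plexus genes, 11 of 11 tested with none at 0, had a median log2 fold change of 0.30 and a summed FPKM of 34440, 31640 and 55130 in the light-treated and 35810, 32440 and 28260 in the untreated samples, with Ttr the most abundant, and without light-treated replicate 4 the median was 0.08. Pineal genes, 12 of 12 tested with none at 0, had a median of 0.27 and sums of 1239, 2138 and 2487 against 2294, 2035 and 503, with Sag the most abundant, and the median lay between -0.06 without untreated replicate 4 and 0.66 without untreated replicate 1. Pde6g, a phototransduction gene that the pineal gland expresses and the most abundant gene of the cyclic AMP list, had 443, 809 and 869 FPKM against 1052, 960.4 and 161, with untreated replicate 4 the lowest. Neuronal genes, 13 of 14 tested with none at 0, had a median of -0.67 and sums of 143, 487 and 270.0 against 316, 293 and 126, with Snap25 the most abundant, and the median lay between -1.23 without light-treated replicate 2 and -0.22 without light-treated replicate 1. Camk2a, a kinase gene of excitatory neurons, had 3.06, 7.25 and 6.20 FPKM against 17.0, 18.3 and 12.4, without overlap, whereas Snap25 had a log2 fold change of 0.30. Bone genes, 10 of 12 tested with none at 0, had a median of -0.23 and sums of 848, 709 and 3880 against 559, 1135 and 1170, and light-treated replicate 4 held most of the osteocalcin gene Bglap. The median of the bone genes lay between -0.48 and 0.01 when 1 replicate was left out, the highest without untreated replicate 2. For each of these lists its part in the result was not tested.

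Of 17 genes that the study names for meninges, 13 were tested and all 13 were higher in light-treated samples. Their median log2 fold change was 0.46, and that of all tested genes 0.03. Of the 13, 2 reached an unadjusted p below 0.05, Ocln and Immt, against 5.04% of all genes on that side. An exact two-sided permutation test of log2 FPKM plus 1, whose smallest p at 3 against 3 is 0.1, gave 0.1 for 10 of the 17, all 10 higher. That p means only that the groups do not overlap, and 4 of the 17 were too low to be tested across all genes. Among the 13 tested, 8 lay higher without overlap, against 10.5% of all tested genes. For Vegfc, the growth factor gene of lymphatic vessels, the exact p was 0.4, and for the copper chaperone gene Cox17 it was 0.5. The study chose these genes on the same samples, so that their direction here is not independent evidence.

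The light effect was then compared with that in the hippocampus of the study's 5xFAD mice, in a joint fit over 11639 genes in which the difference between the tissues is itself tested. It differed for 49 genes (0.421%) at an adjusted p below 0.05, more negative in meninges for 38 and more positive for 11. The count was 0 without light-treated meninges replicate 1, 2 without light-treated replicate 2, 2 without light-treated replicate 4, 0 without untreated replicate 1, 0 without untreated replicate 2 and 78 without untreated replicate 4. On all samples it was 361 with edgeR's quasi-likelihood test and 263 without sample weights. With the length trend taken out it was 1, Zbtb16, and the 49 genes had a median length of 4547 bases against 2712 over the genes tested. In that fit the log2 fold change of Fkbp5 was -2.57 in meninges and 0.07 in hippocampus, and that of Zbtb16 was -2.46 and 0.05. The glucocorticoid-response genes had a median of -1.03 in meninges and -0.46 in hippocampus over 21 genes, and the immediate early genes -0.44 and -0.50 over 25 genes. The interferon-stimulated genes had a median of 0.91 in meninges and -0.57 in hippocampus over 18 genes, and the difference passed the threshold for Ifit1 alone among them. The medians themselves were not tested against each other.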

How the data were processed

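RNA-seq tables of the study, which the authors deposited with a count (an expected count, with fractions) and an FPKM per gene and sample, were used as they stand. The GEO labels name Trimmomatic, HISAT2, StringTie and mm10, whereas the methods of the study name fastp and RSEM, and the files do not settle which was used. The counts were rounded to whole numbers, scaled by TMM and tested with edgeR 4.0.16 (quasi-likelihood, group only, all 10 meninges samples, 7 residual degrees of freedom) in R 4.3.3, with Benjamini-Hochberg adjustment over 13646 genes. Genes were called at an adjusted p below 0.05 and at least 2-fold. The difference between tissues was tested with voomLmFit and limma 3.58.1 over 6 meninges and 8 hippocampus samples. Transcript length is the one that the deposited counts and FPKM imply together. Symbols came with the deposited values of the sorted meningeal lymphatic endothelial cells. A further 75 were filled from GENCODE vM21, which gave positions for 22232 genes. Alternatives were DESeq2 1.42.0, limma on log2 FPKM, other scalings and filters, the 6 samples alone, a replicate block, leaving out each sample and removal of the length trend. Tables were joined with pandas 2.3.3 and exact tests run in scipy 1.17.1. Named genes are those past the thresholds, the 12 with the smallest p on each side among genes without overlap at a mean FPKM of at least 5 in 1 group, the most abundant and smallest-p members of each list, genes named by the study, and marker genes, and other genes were named after their values were seen. The members and the 52 lists were chosen with earlier results of these data known.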

Additional observations from a re-analysis of the deposited data

Results flagged for a closer look

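For 8 of the genes named in the report the light effect differed between meninges and hippocampus by a test of the interaction itself (voomLmFit, adjusted p below 0.05). The difference in log2 fold change, meninges less hippocampus, was -2.64 for Fkbp5, -2.51 for Zbtb16, -3.95 for Nr4a3, -2.87 for Pde10a, -1.74 for Slc6a17 and -2.18 for Camk2a. It was 2.74 for Ifit1 and 0.93 for Nipsnap2. The number of genes that pass this test depends on single replicates, as given in the report, and with the length trend taken out only Zbtb16 of the 8 passes it. In hippocampus the log2 fold change of Ifit1 was -1.03 and that of Camk2a 0.45.

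A single WT sample stood far from its group. The summed FPKM of choroid plexus genes was 17330 in WT replicate 1 and 44500, 41520 and 40980 in the other WT samples, so that the gap of the lowest sample to the next made up 0.870 of the range, above Dixon's critical value for 4 samples. Chance flags about 1 in 20 groups in this way, and 12 were looked at. WT replicate 1 is not one of the 6 samples compared.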

How the results depend on the processing

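The 2 genes past the thresholds were the same genes under each other scaling, under each other filter with edgeR, and with the length trend taken out, and with the 6 samples alone they were 2 of 3. The count of 2 was 77 with DESeq2 on 10 samples, 198 with DESeq2 on the 6 samples without a filter and 242 on them with the filter, an alternative chosen after seeing the data. It was 1, Fkbp5, with limma at either pseudocount and lay between 0 and 4 when 1 sample was left out. Genes higher at an unadjusted p below 0.05 numbered 426 and lower 704 at a mean FPKM of at least 5, which tests fewer genes, and 456 to 762 and 741 to 1212 when 1 sample was left out. Genes without overlap numbered 1830 to 2682 higher and 1833 to 2374 lower when 1 of the 6 was left out, and 822 lower at a mean FPKM of at least 5. Genes whose light effect differed between tissues numbered 361 with edgeR's quasi-likelihood test, 263 without sample weights, 1 with the length trend taken out, and 0 to 78 when 1 of the 6 meninges samples was left out. Where fewer genes or samples do not account for these changes, the cause was not tested.

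Samples that share a replicate number had correlations of -0.10, 0.27 and -0.02 for numbers 1, 2 and 4. Those of other pairs lay between -0.34 and 0.36. The numbers were not taken as pairs, though so few samples cannot settle whether they are. With the replicate number as a block (replicate block) the count past the thresholds was 1 over the 6 samples, with 0 genes shared with the 2, and 0 over all 10, so that Fkbp5 and Zbtb16 both missed the thresholds, and the cause was not tested. The log2 fold change of Igll1, -0.17, lay between -3.04 and 0.43 when 1 sample was left out (0.43 without light-treated replicate 2, 0.21 without light-treated replicate 4 and 0.13 without untreated replicate 4), and it never passed the threshold. Of 1661 log2 fold changes of 70 named genes under alternatives, 1560 kept their direction and side of the threshold, 11 lost it and 87 gained it. The lowest depth, 7657892 counts in untreated replicate 1, limits genes near an FPKM of 1. With 3 mice a side, a p that misses the threshold does not show that a gene did not differ.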

Other observations

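Genes of enzymes that handle oxidants stood on both sides. Nqo1, a quinone reductase gene, had 48.9, 55.2 and 46.6 FPKM in light-treated replicates 1, 2 and 4 and 19.3, 29.0 and 35.1 in untreated replicates 1, 2 and 4. Cat, the catalase gene, had 60.8, 70.2 and 66.3 FPKM against 39.1, 29.7 and 55.3. Gclc, the rate-limiting gene of glutathione synthesis, was lower, with 5.80, 3.29 and 5.08 FPKM against 16.2, 16.5 and 11.1. None of the 3 overlapped, and the list of 21 antioxidant genes as a whole had a median log2 fold change of 0.10, which lay between 0.01 without light-treated replicate 1 and 0.27 without light-treated replicate 2 and was -0.02 with the trend by transcript length taken out. Sfrp2, a secreted Wnt inhibitor gene of fibroblasts, had 60.0, 47.7 and 47.7 FPKM against 19.7, 25.2 and 23.4. Tgfb1, the growth factor gene of fibrosis, had 0.62, 0.52 and 0.67 against 1.02, 2.37 and 1.81. With every light-treated value below an FPKM of 1, the lack of overlap of Tgfb1 was fixed by the filter. Clec7a, a receptor gene of microglia and macrophages near amyloid, had 12.2, 14.3 and 9.43 FPKM against 2.42, 3.34 and 8.12, and lay between 3.03 and 5.48 in WT meninges. All of these had adjusted p-values above the threshold.

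The list of 8 amyloid precursor and presenilin genes had a median log2 fold change of -0.03. It lay between -0.14 and 0.08 when 1 replicate was left out, the highest without untreated replicate 2. App, whose mouse gene alone is described here, had 113, 142 and 122 FPKM against 130, 121 and 115. Ncstn, which encodes a subunit of the enzyme that cleaves the precursor, had 33.1, 41.8 and 26.4 FPKM against 14.9, 21.8 and 30.3, and the groups overlapped.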
